A study of Mus musculus with 2 samples.

Results

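Mir28a, Mir151 and Mir708 are 3 mouse microRNA (miRNA) genes known to derive from copies of LINE2, an ancient family of retrotransposons that no longer moves in the mouse. They were chosen by gene identifier from a list that describes them as seed-related miRNAs in introns of Lpp, Ptk2 and Tenm4. Seeds were compared here only for Mir28a and Mir708, not for Mir151. The 3 genes are among the 1973 miRNA genes in the tables. Small RNA was sequenced from the forebrain of B6NCrl mouse embryos at day 16.5, in 2 libraries from separate tissue pools of both sexes, with no genetic change or treatment named. The pool of replicate 2 held 41 embryos, and the labels do not give the number for replicate 1. The libraries form a single group, so the questions addressed are how abundant each of these genes was, how they stood to each other and to the remaining miRNA genes, and how closely the pools agreed.

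A miRNA is cut from a hairpin in a longer transcript, and a mature arm of the hairpin then guides a silencing complex to messenger RNAs, mainly through its seed, bases 2 to 8. A pair of LINE2 copies inserted in opposite orientation can give such a hairpin, because an RNA that runs through both folds back on itself. A miRNA in an intron is usually transcribed with its host gene. Lpp encodes a LIM-domain protein of focal adhesions, Ptk2 encodes focal adhesion kinase, and Tenm4 encodes a teneurin, a transmembrane protein of developing neurons. The host transcripts were not measured in these libraries.

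The mature sequences of Mir28a and Mir708 are shown with those of Mir28b, to compare their seeds. Of the 3 genes, these 2 matched the RefSeq sequence table (GRCm38.p6). Mir151 had no entry there, so whether its seed is related to theirs was not tested. All sequences run 5′ to 3′ and the capitals mark the seed.
miR-28a-5p: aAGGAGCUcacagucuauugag
miR-708-5p: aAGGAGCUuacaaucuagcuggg
miR-28b: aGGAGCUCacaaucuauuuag
miR-28a-3p: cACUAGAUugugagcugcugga
miR-708-3p: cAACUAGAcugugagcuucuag

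The 5p arms of Mir28a and Mir708 had the same seed, AGGAGCU, and no other of the 1738 mature arms in the table had it at bases 2 to 8. The 7 letters occurred anywhere in 9 of the 1738 arms (0.518%). Aligned without gaps from base 1, miR-28a-5p and miR-708-5p were identical at 16 of 22 bases, and the substitutions from the first to the second, counted from the 5′ end of miR-28a-5p, were C9U, G13A, U18G, U19C, G20U and A21G. The mature miR-28b was identical to miR-28a-5p at 19 of 21 bases, but its annotated start lay 1 base further in, so its seed read GGAGCUC. The 3p arms of Mir28a and Mir708 were identical at 17 of 21 bases with a start that differed by 1 base, and their seeds were ACUAGAU and AACUAGA.

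The opposite arms of different genes were complementary over a longer run than the arms of either gene, as the next pair shows with that run in capitals.
miR-28a-5p: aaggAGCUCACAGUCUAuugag
miR-708-3p: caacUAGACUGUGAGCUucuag
This run held 13 bases. The longest exact complement between the arms of Mir28a held 8 bases, and that between the arms of Mir708 held 5. These are matches of letters only, with G-U pairs not counted.

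Each of the 3 genes lay in an intron of a protein-coding gene on the same strand and overlapped no exon of any annotated transcript of that gene (GENCODE M21 on GRCm38, also called mm10). Mir708 (ENSMUSG00000076143.1), at chr7:96249424-96249532 on the plus strand, lay in intron 1 of Tenm4, 37.8 kb from the start of the principal transcript and inside an intron of 143 kb. Mir151 (ENSMUSG00000065612.1), at chr15:73254815-73254882 on the minus strand, lay in intron 22 of Ptk2, 168 kb from the transcript start and only 2.15 kb past the exon before it. Mir28a (ENSMUSG00000065494.1), at chr16:24827855-24827940 on the plus strand, lay in intron 8 of Lpp, 434 kb from the transcript start. Intron numbers and distances hold for the principal transcript of each host. The miRNA gene lay within the span of 7 of 12 annotated transcripts of Tenm4, 5 of 15 of Ptk2 and 3 of 6 of Lpp. The annotated Tenm4 gene starts upstream of its principal transcript, at chr7:96171246. The gene of the antisense transcript 1700085D07Rik covered the opposite strand at Mir151, and no annotated gene lay opposite Mir28a or Mir708. The nearest other annotated miRNA gene was 56.1 kb from Mir708, 1309 kb from Mir151 and 1717 kb from Mir28a.

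**Figure D1:**
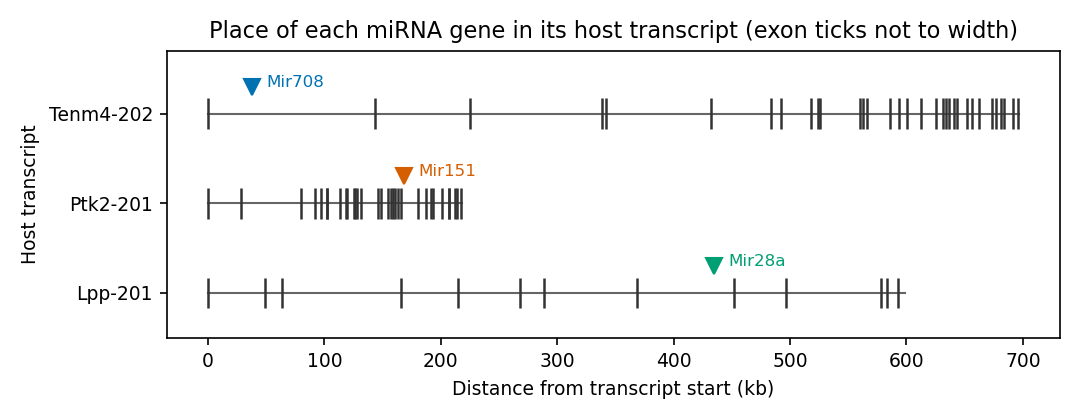
Place of each miRNA gene (triangle) along the principal transcript of its host, with distance from the transcript start in kb on the horizontal axis and exons as ticks whose width is not to scale. Mir708 sits in the first intron, at 37.8 kb, while Mir151 at 168 kb and Mir28a at 434 kb lie in later introns.

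The gene strand held 5060112 counts in replicate 1 and 4158686 in replicate 2, and levels are given as counts per 1000000 of these (CPM), with 1 count worth 0.198 and 0.240 CPM. Intervals are exact 95% intervals for counting error only, since reads without molecular identifiers are not independent molecules. Of the miRNA genes fixed as markers, the 10 neural genes with a row all had counts and summed to 20148 ± 1054 CPM (SD, n = 2), against 17805 ± 1689 for endothelial Mir126a, 273 ± 46.3 for 3 erythroid genes, 124 ± 38.6 for myeloid Mir223, 81.4 ± 23.3 for liver Mir122 and 22.01 ± 4.58 for 4 muscle genes, of which Mir1a-1, Mir133a-1 and Mir133a-2 were at 0. Of the neural sum, Mir137 alone gave 12348 ± 1260 CPM, while the neuronal Mir124a genes, which are present in several copies, reached mean levels of at most 4.27 CPM. The Mir1a and Mir133a genes also come in several copies. Reads that map to several places are kept out of the gene rows, so a low count or 0 for these genes does not show absence. In tissue, a smaller share of cells of a type and less RNA per cell cannot be told apart.

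Mir708 was the most abundant of the 3 genes by read count. It had 45487 counts in replicate 1 and 37969 in replicate 2, or 8989 CPM (8907 to 9072) and 9130 CPM (9038 to 9222). Both libraries lay close to their mean of 9060 ± 99.5 CPM (SD, n = 2), a spread of 1.10% of the mean and 0.906% ± 0.00995 of all gene-strand counts. Of 703 genes with a count in either library, Mir708 ranked 23rd by mean CPM, 23rd in replicate 1 and 24th in replicate 2. Ranks and shares here leave out reads that map to several places, 40.5% of the reads in replicate 1 and 43.3% in replicate 2. Genes present in several copies can therefore rank too low, and how far this raised the ranks of the 3 genes was not tested.

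Mir151 followed in CPM. It had 30077 and 24002 counts in replicates 1 and 2, or 5944 CPM (5877 to 6012) and 5772 CPM (5699 to 5845). Its mean was 5858 ± 122 CPM (SD, n = 2), a spread of 2.08% of the mean, and it ranked 33rd by mean CPM and in each library. The ranges of Mir708 and Mir151 over the libraries did not overlap.

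Mir28a stood an order of magnitude lower. It had 2346 and 2249 counts, or 464 CPM (445 to 483) in replicate 1 and 541 CPM (519 to 564) in replicate 2. Its mean was 502 ± 54.6 CPM (SD, n = 2), and the spread of 10.9% of the mean was the widest of the 3 genes. It ranked 121st by mean CPM, 123rd in replicate 1 and 110th in replicate 2. Replicate 2 was the higher library, and the intervals of the 2 libraries did not overlap. The intervals of Mir151 did not overlap either, with replicate 2 the lower library, while those of Mir708 did. The share of all genes without such overlap was not computed. Without scaling of the library totals, the binomial test given below called 47.6% of all tested genes.

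The order of Mir708 and Mir151 depended on whether counts were set against gene length. The annotated genes are 109 bases for Mir708, 68 for Mir151 and 86 for Mir28a. Per annotated base, Mir708 stood at 82.5 and 83.8 CPM per base in replicates 1 and 2, and Mir151 at 87.4 and 84.9, so that Mir151 was then the higher in both libraries. Mir28a stood at 5.39 and 6.29 CPM per base and remained the lowest on both scales. The labels give a size range below 30, so a read covers less than the length of any of these hairpins. The mature arms listed for Mir708 and Mir28a hold 22 or 23 bases, so counts need not grow with annotated length. The order per base therefore does not show that Mir151 was the more abundant. Whether the arms of different miRNAs enter a library equally well was not tested.

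**Figure D2:**
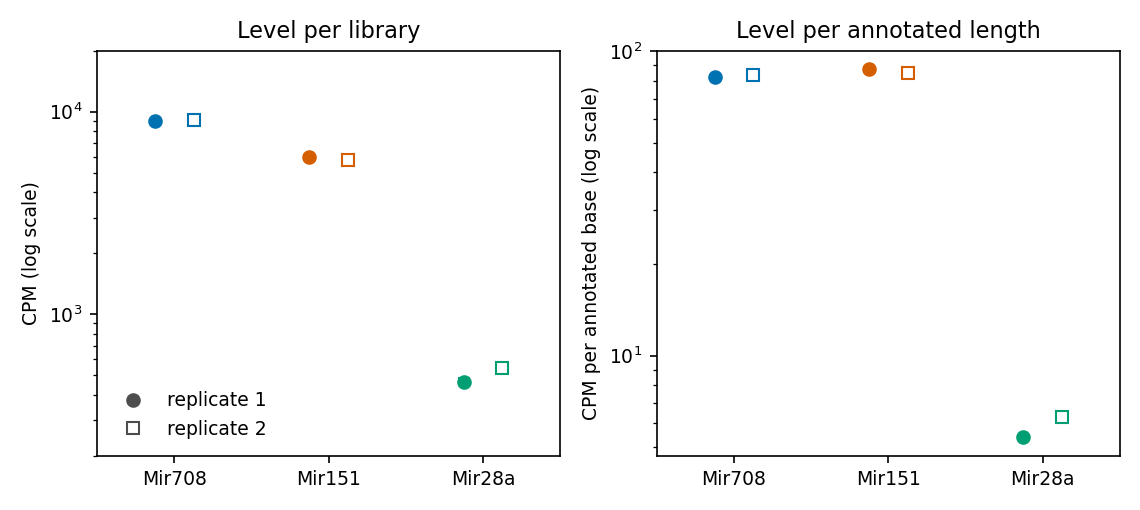
Levels of Mir708, Mir151 and Mir28a in replicate 1 (filled circles) and replicate 2 (open squares), as CPM on the left, with bars for the exact 95% interval of counting error that are mostly smaller than the symbols, and as CPM per annotated base on the right, both on log axes. Mir708 leads on the left at 9060 CPM on average, Mir151 leads on the right at 86.1 CPM per base, and Mir28a is lowest in both.

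Together the 3 genes took 1.54% of the gene-strand counts in each library, with a mean of 1.54% ± 0.00322 (SD, n = 2). Mir708 made up 58.4% of their summed count in replicate 1 (58.0% to 58.7%) and 59.1% in replicate 2 (58.7% to 59.5%). Mir151 made up 38.6% (38.3% to 38.9%) and 37.4% (37.0% to 37.8%), and Mir28a 3.01% (2.89% to 3.13%) and 3.502% (3.36% to 3.65%). The 5p arms of Mir708 and Mir28a share their seed, and by read count the Mir708 gene exceeded the Mir28a gene 19.4-fold (18.6 to 20.2) in replicate 1 and 16.9-fold (16.2 to 17.6) in replicate 2. Counts of a gene do not separate its arms, so these ratios are not ratios of the 5p arms. Mir708 exceeded Mir151 by a ratio of 1.51 (1.49 to 1.53) and 1.58 (1.56 to 1.61), and Mir151 exceeded Mir28a 12.8-fold (12.3 to 13.4) and 10.7-fold (10.2 to 11.1). For each of these ratios the counting intervals of the libraries did not overlap. The intervals take reads as independent, and the share of all gene pairs without overlap was not computed. Between the libraries, the binomial test given below called 45.3% of all tested genes, but it tests single genes with scaled totals, not ratios of genes. The ratios between the 3 genes do not depend on how the libraries are scaled.

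The level of Mir708 is uncertain because of a near copy. Bases 2 to 23 of miR-708-5p, which are all but its first base, also occur in Gm23134, a miRNA gene at chr2:157562361-157562447 on the minus strand within Blcap, and this gene was singled out after its values were seen. Gm23134 had 119 counts in replicate 1 and 117 in replicate 2, or 23.5 and 28.1 CPM, and took 0.261% and 0.307% of the sum of the 2 genes. The tables keep multi-mapping reads out of the gene rows, 40.5% of the reads in replicate 1 and 43.3% in replicate 2, and how many of them belong to Mir708 was not tested. The longest run that miR-28a-5p shared with another miRNA gene was bases 2 to 21, in Mir28c, which is not analysed here. The 3p arms shared at most 13 bases with another gene, in this search of the annotated hairpins on both strands, which did not take in Mir151.

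Among all detected miRNA genes, the 3 genes stood in the upper part of the range, with multi-mapping reads left out. Of 654 miRNA genes that lay in introns of same-strand protein-coding hosts with no exon overlap, 314 had a count, and these genes took 34.6% ± 1.64 (SD, n = 2) of all counts. Mir708 ranked 9th among the 314, Mir151 15th and Mir28a 49th, against a median of 1.95 CPM for the set. The 3 genes took 4.31% of the counts of the set in replicate 1 and 4.62% in replicate 2.

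The genes next to each in CPM show how far its place in the order is fixed. Mir98, a member of the let-7 family, was next below Mir708 at 8485 ± 968 CPM, and it was the only gene whose range over the libraries overlapped that of Mir708. The genes above it, Mir106b at 10093 ± 615 CPM and Mir20a at 10089 ± 407 CPM, and Mir23b below at 7701 ± 163 CPM, did not overlap it. The ranges of 2 genes overlapped that of Mir151, Mir744 at 5745 ± 270 CPM and Mir342, named after its values were seen. Mir135b at 6708 ± 938 CPM and Mir181d at 6807 ± 476 CPM above Mir151, and Mir125a at 5104 ± 737 CPM below, did not overlap it. For Mir28a the ranges of 15 genes overlapped, among them Mir16-2 at 520 ± 26.4 CPM, Mir300 at 518 ± 117 CPM and Mir374b at 457 ± 31.6 CPM, while Mirlet7a-1 at 431 ± 37.5 CPM did not.

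Likeness over both libraries was measured as the summed absolute difference of log2(CPM + 1) over the 2 libraries. Mir744 was closest to Mir151 at 0.06, followed by Mir135b at 0.38. Mir98 was closest to Mir708 at 0.21, followed by Mir106b at 0.31. Mir27b, at 474 and 599 CPM, was closest to Mir28a at 0.18, followed by Mir374b at 0.26. With 2 libraries of a single group this measure reflects level more than pattern.

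**Figure D3:**
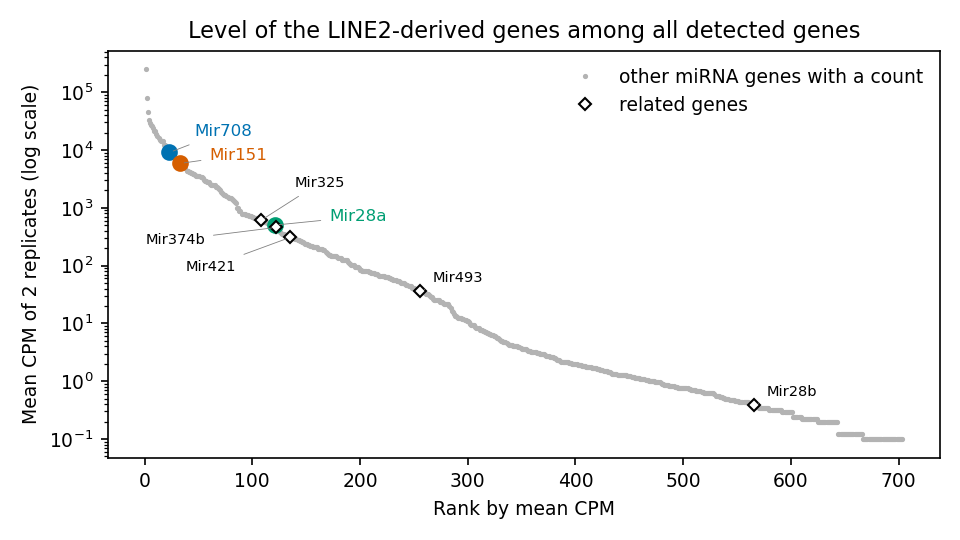
Mean CPM of the 703 miRNA genes with a count (log axis) against their rank, with Mir708, Mir151 and Mir28a in colour and the related genes as diamonds. Mir708 at rank 23 and Mir151 at rank 33 lie on the steep left part of the curve, and Mir28a at rank 121 lies beside Mir325 and Mir374b.

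The relatives of these genes were lower than Mir708 and Mir151 in CPM. Mir28b had 4 counts in replicate 1 and 0 in replicate 2, where an empty row was taken to allow up to 0.721 CPM, or 3 counts. This limit was a fixed setting and not the upper end of the exact 95% intervals. Among the genes with a mature sequence in the RefSeq table, none shared a seed with an arm of Mir28a or Mir708 beyond the seed those 2 genes share. Of 6 other genes that were listed as LINE2-derived from general knowledge, 4 had a row and all 4 had counts. Mir325 stood at 607 CPM in replicate 1 and 603 in replicate 2, Mir374b at 435 and 480, Mir421 at 318 and 296, and Mir493, of the imprinted Dlk1-Dio3 region, at 41.7 and 32.0. Together these 4 genes summed to 1402 and 1411 CPM, below Mir151 alone. Mir374b ranked directly after Mir28a, at 122.

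For each gene the libraries were compared by an exact binomial test (two-sided) on its pair of counts. Library totals were scaled by edgeR's trimmed mean of M values (TMM), with Benjamini-Hochberg adjustment over the 466 genes whose counts summed to at least 10. The test compares these libraries, not conditions, and takes reads as independent, so at the depth of Mir708 and Mir151 it calls small differences. It called 45.3% of all tested genes at an adjusted p under 0.05, and 23.4% as higher in replicate 2. All 3 LINE2-derived genes were called, each as higher in replicate 2.

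Mir28a had the largest difference of the 3, with a log2 ratio of replicate 2 over replicate 1 of 0.37 (adjusted p = 5.44e-17, exact binomial test). Of the 273 genes that reached 100 counts in each library, 178 had a smaller ratio in size. Mir708 had a log2 ratio of 0.17 (adjusted p = 1.56e-60) and Mir151 of 0.10 (adjusted p = 2.33e-15), and 103 and 64 of the 273 genes had smaller ratios. The median size of the log2 ratio was 0.24 over the 273 genes and 0.33 over all tested genes. With TMM scaling, Mir708 and Mir151 thus differed between the pools by less than the typical gene and Mir28a by more. These medians were not computed without that scaling. The median log2 ratio of the 3 genes was 0.17, beside 0.01 over all tested genes.

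With unscaled totals every log2 ratio fell by 0.14, and the direction held for Mir28a at 0.22 (adjusted p = 6.59e-07, exact binomial test) but not for the others. Mir151 turned to -0.04 and was called lower (adjusted p = 0.00183), and Mir708 at 0.02 was not called (adjusted p = 0.0534). With unscaled totals 47.6% of the genes were called, 14.4% higher and 33.3% lower. Beside the higher Mir28a in replicate 2, endothelial Mir126a stood at 16611 CPM in replicate 1 and 18999 in replicate 2, and myeloid Mir223 at 96.6 and 151. Of the 3 erythroid genes, which summed to 306 and 240 CPM, Mir451a stood at 239 and 152, Mir486 at 24.7 and 18.03, and Mir144 at 42.7 and 69.97. The neural genes summed to 20893 and 19402 CPM, liver Mir122 stood at 97.8 and 64.9, and the muscle genes summed to 18.8 and 25.2. The part of these genes in the difference of Mir28a was not tested.

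**Figure D4:**
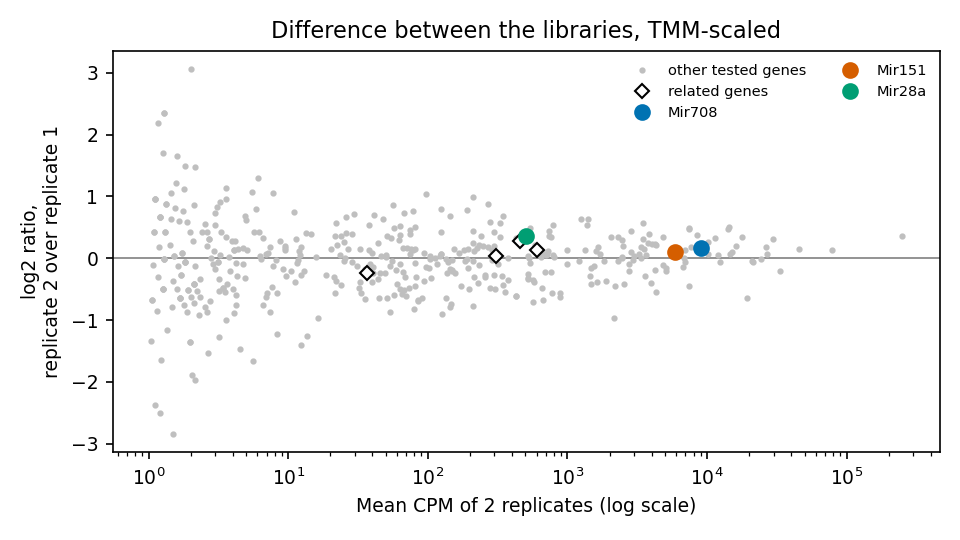
Log2 ratio of replicate 2 over replicate 1 (TMM-scaled, vertical axis) against mean CPM (log axis) for the 466 tested genes, with Mir708, Mir151 and Mir28a in colour and the related genes as diamonds. Mir708 at 0.17 and Mir151 at 0.10 lie near the zero line, and Mir28a at 0.37 lies higher, and with unscaled totals every point would be 0.14 lower.

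Of the 4 other LINE2-derived genes tested, 2 were called higher in replicate 2 and 0 lower, with a median log2 ratio of 0.09. Of all tested genes, 23.4% were called higher and 21.9% lower, so calls among 4 genes say little about them as a set. Mir374b was called at 0.29 (adjusted p = 7.87e-10, exact binomial test) and Mir325 at 0.14 (adjusted p = 0.00146), which is less than the shift between the scalings for Mir325. Mir421 at 0.04 (adjusted p = 0.633) and Mir493 at -0.24 (adjusted p = 0.245) were not called.

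Almost all reads at the 3 genes lay on the annotated strand. Mir151, where an antisense gene is annotated, had 0 opposite-strand reads in either library. Most abundant genes had none, since 12 of the 100 most abundant had any opposite-strand read. By the same fixed limit, a count of 0 was taken to allow up to 0.593 CPM in replicate 1 and 0.721 CPM in replicate 2. Mir28a had 1 opposite-strand read in each library.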

How the data were processed

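Per the deposited file descriptions, the tables hold raw read counts per gene on mm10 with annotation M4. No source used here states the aligner, the counter or the trimming. Each table has 3 count columns, without regard to strand and for each strand. The column of the annotated strand was used, and the 4 rows of unassigned reads were left out of totals. Multi-mapping reads made up 40.5% and 43.3% of all reads in replicates 1 and 2, unmapped reads 19.1% and 15.2%, and reads outside genes 2.496% and 2.82%.

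Symbols and positions came from GENCODE M21, which named 1894 of 1973 genes, and mature sequences from RefSeq (GRCm38.p6). The 3 genes, the related lists and the markers were chosen with earlier results of these data known. Other named genes are the 2 next above and below each gene in mean CPM and the 2 closest in log2(CPM + 1). TMM factors came from edgeR 4.0.16 under R 4.3.3 over genes whose counts summed to at least 10. With a single group, edgeR's quasi-likelihood test could not be used. Log2 ratios used 0.5 added to each count. Intervals are exact Poisson for levels and Clopper-Pearson for shares and ratios. The test was tried on simulated Poisson counts with known changes. These held no variation between pools, so the trial does not show how the test performs where pools vary. Alternatives were unscaled totals, DESeq2 1.42.0 size factors, unstranded counts, other denominators, filters and pseudocounts, and leaving out a replicate. The labels call the pools biological replicates.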

Additional observations from a re-analysis of the deposited data

Results flagged for a closer look

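On the strand opposite Mir708, 26 reads were counted in replicate 1 and 16 reads in replicate 2, in a column outside the gene-strand counts. Both were above the fixed limit of 3 counts taken for a count of 0. The opposite-strand reads were 0.0571% and 0.0421% of the reads at the gene. Of the 100 most abundant genes, 12 had any opposite-strand read and the median share was 0%. Only 1 of the 100 had a larger share than Mir708. Mir28a, at rank 121, lay outside the 100 and had 1 opposite-strand read in each library. Its share was 0.0426% in replicate 1 and 0.0444% in replicate 2, so a share of this size was not particular to Mir708. Over the reads of all genes, however, the opposite-strand share was far larger, at 1.91% in replicate 1 and 1.70% in replicate 2. No gene is annotated on the strand opposite Mir708.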

How the results depend on the processing

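The level in CPM depends on what counts are set against. Per 1000000 of all reads in the table, the means were 189 for Mir28a, 2200 for Mir151 and 3403 for Mir708. Against totals without the 10 most abundant genes, an alternative chosen after seeing the data, they were 1134, 13202 and 20430. With unstranded counts Mir708 was at 8900 CPM, which moved it by more than its narrow spread. Apart from leaving out a replicate, 5 other alternative levels and all 3 alternative shares of the genes in their sum, the latter with unstranded counts, moved by less than 1 SD of the replicates. Leaving out a replicate gave 464 to 541 CPM for Mir28a, 5772 to 5944 for Mir151 and 8989 to 9130 for Mir708, and with 2 libraries this range is the values of the libraries themselves.

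Of 15 alternative log2 ratios between the libraries, 13 kept their direction and their call. The exceptions came with unscaled totals, which shift every ratio by -0.14. There Mir151 was at -0.042 (adjusted p = 0.00183, exact binomial test) and Mir708 at 0.022 (adjusted p = 0.0534). Divided by annotated length, also chosen after seeing the data, the mean log2 ratio of Mir708 to Mir151 turned from 0.63 to -0.051, by the construction of that setting. No paired analysis was possible because both libraries belong to 1 group. Depth limits Mir28b, whose 4 and 0 counts allow no comparison between libraries.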
